A study of Mus musculus with 12 samples.

Results

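A set of 7 genes of leukocyte signalling, adhesion and oxidant production was followed in the ileum of mice treated with tankyrase inhibitors. They are Tyrobp, Itgb2, Vav1, Dock2, Cybb, Ncf1 and Ptprc, and they were taken by name from the 780 genes of a targeted panel. All 7 members were found. They had been chosen by their signal in the 4 treatment groups, with fold changes against control mice from an earlier analysis of the same libraries known. Their levels and differences between groups are therefore given as a description, without p-values, and tests are reported for other genes of the same pathways.

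The panel counted mRNA in total RNA of ileum from 12 mice, 3 in each of 4 groups. G007-LK was injected into the peritoneum at 30 mg/kg 2 times a day. STP1002 was an oral treatment with 1 dose a day, of 10 mg/kg in one group and of 5 mg/kg in another. Control mice had oral DMSO on the same daily schedule, and treatment lasted 28 days in every group. The 3 mice of a group had been drawn at random from 8. Both compounds inhibit tankyrases, enzymes whose modification of axin feeds into Wnt signalling. G007-LK and STP1002 thus differed in dose, route and schedule as well, and no control mice with an injected vehicle were analysed here. Strain, sex and age are not given in the sources used here. Of 19 listed epithelial markers 5 were measured, and each of them was above background in at least 1 library of every group.

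Leukocytes share a small set of signalling, adhesion and effector proteins that most other cells lack. Receptors on myeloid and natural killer cells signal through adaptor proteins with tyrosine motifs, and exchange factors of the Vav and DOCK families then activate Rac, which drives actin assembly, migration and adhesion through integrins. In phagocytes the same signals assemble the NADPH oxidase, whose subunits move from cytosol to membrane to make superoxide. In the intestine such cells lie in the lamina propria beneath the epithelium and in lymphoid follicles. In a sample of whole tissue a difference in the number of such cells and a difference in RNA per cell cannot be told apart.

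By RefSeq on GRCm38.p6 the 7 protein-coding genes lie at chr1:138062859-138175756 (Ptprc), chr5:134220053-134229628 (Ncf1), chr7:30413782-30417582 (Tyrobp), chr10:77530329-77565708 (Itgb2), chr11:34226815-34783905 (Dock2), chr17:57279100-57329236 (Vav1) and chrX:9435252-9487766 (Cybb). The positions of the panel's probes within them are not given in the sources used here.

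The unit is the signal deposited by the authors, a reporter count normalized by 1 factor per library. A gene was taken as above background where its signal exceeded the mean plus 2 SD of the negative control probes of that library. Recovered gene counts summed to 50249 to 508819 per library with G007-LK, 54392 to 96703 with STP1002 at 10 mg/kg, 44180 to 67398 at 5 mg/kg and 31901 to 293533 in control mice. G007-LK replicate 1 and control replicate 1 were the deepest libraries. Their backgrounds were 4.36 and 4.33, against 12.2 to 40.4 in the other libraries, so low signals were resolved best in these 2. Fold changes below are differences of mean log2(signal + 1), with the moderated SE of a limma fit to all 780 genes, and fold changes without these 2 libraries stand beside them where the libraries bear on the result.

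With G007-LK the adaptor, the integrin chain, one exchange factor and the membrane subunit of the oxidase were all higher than in control mice. The log2 fold changes were 2.72 for Tyrobp, 3.89 for Itgb2, 3.54 for Vav1 and 3.57 for Cybb. The cytosolic oxidase subunit Ncf1, the second exchange factor Dock2 and the phosphatase Ptprc were not separated from control mice in this group. Ncf1, Dock2 and Ptprc had larger mean differences with STP1002 than with G007-LK, between 1.61 and 2.80 on the log2 scale, with wide spread between mice for Dock2 and Ptprc. Vav1 had 2.00 at 5 mg/kg of STP1002. The whole panel was shifted by a median of 0.69 at 10 mg/kg, and after median-ratio rescaling Ncf1, Dock2 and Ptprc had 0.92 to 1.53 at that dose. The rescaled value of Ptprc was 0.92 at 10 mg/kg and 1.24 with G007-LK, the reverse order. With quantile normalization these 2 values were 1.40 and 1.02, with edgeR 1.52 and 1.40, and with DESeq2 1.45 and 1.39. Its larger difference with STP1002 at this dose thus depended on the scaling.

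**Figure D1:**
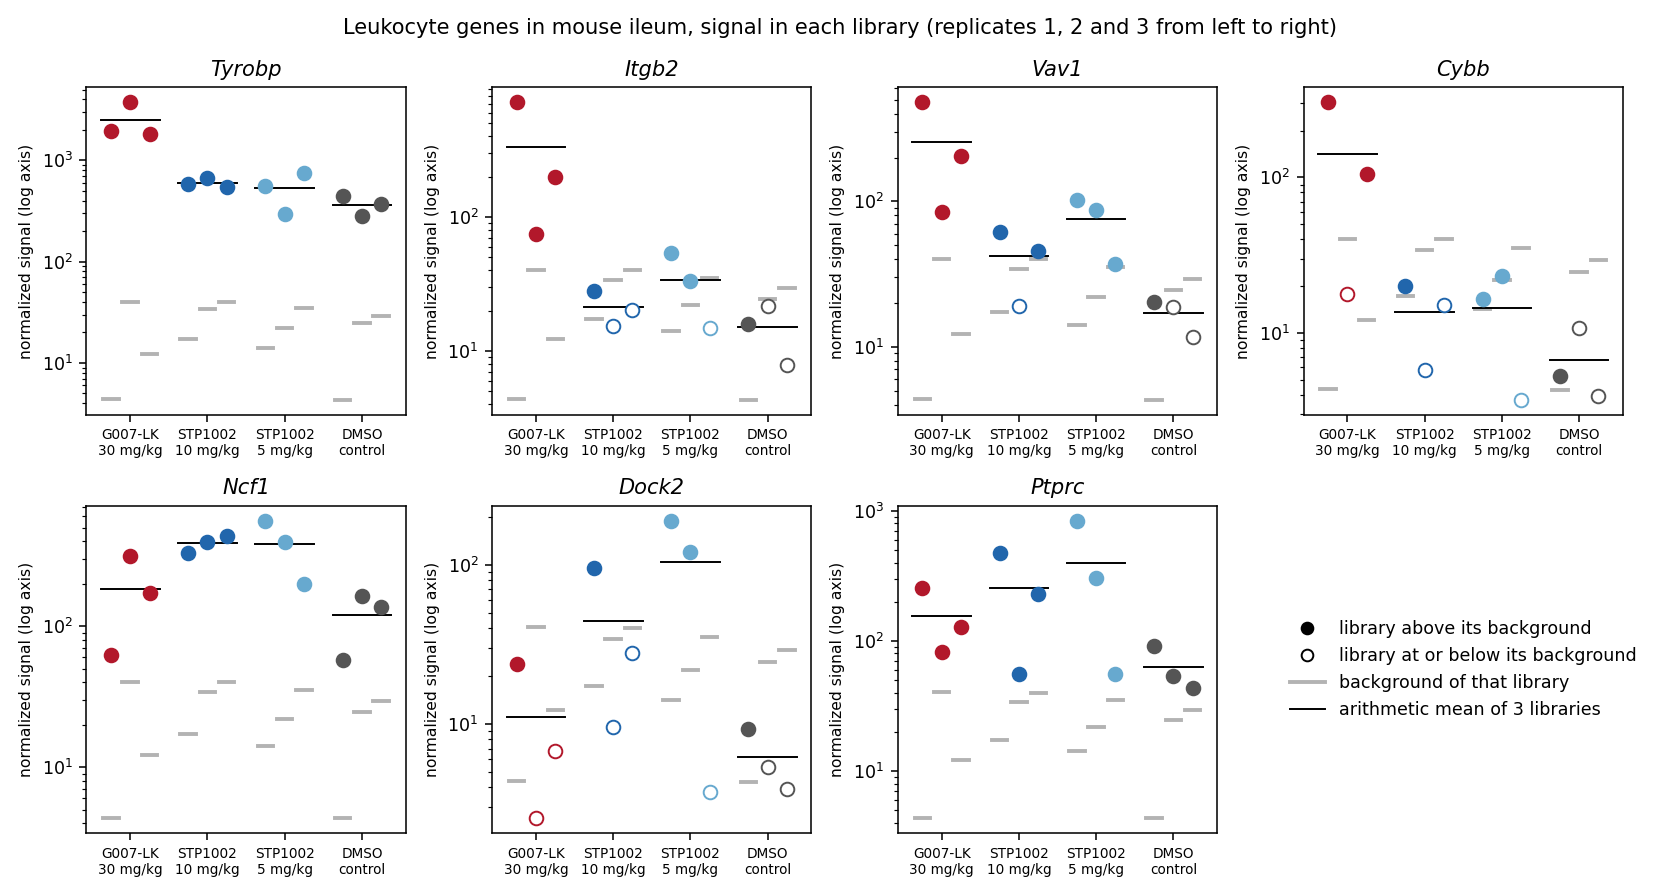
Normalized signal of the 7 genes in each of the 12 libraries, on log axes, by treatment group. Filled points lie above the background of their library and open points at or below it, grey bars mark that background, and black lines are arithmetic means of 3 libraries. All 3 G007-LK libraries lie above all 3 control libraries for Tyrobp, Itgb2, Vav1 and Cybb, while Dock2 has 5 filled points among 12.

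Tyrobp encodes DAP12, a small membrane adaptor that pairs with activating receptors of myeloid and natural killer cells and recruits the kinase Syk. Its signal was 1958, 3757 and 1829.8 in G007-LK replicates 1 to 3, 584, 666 and 542 with STP1002 at 10 mg/kg, 553, 293 and 755 at 5 mg/kg, and 445, 283 and 368 in control mice. Every library was above background, and the G007-LK libraries lay above all 9 others. The groups averaged 2515 ± 1078 with G007-LK, 597 ± 62.7 with STP1002 at 10 mg/kg, 534 ± 231 at 5 mg/kg and 365 ± 81.25 in control mice (SD, n = 3 each). Against control mice the log2 fold change was 2.72 ± 0.44 (SE) with G007-LK, and 3.02 without the 2 deepest libraries. With STP1002 at 10 mg/kg the 3 treated mice also lay above the 3 control mice, with a log2 fold change of 0.73 ± 0.44. The whole panel was shifted by a median of 0.69 in that comparison, however. Tyrobp had 0.03 after median-ratio rescaling, -0.01 with edgeR and -0.09 with DESeq2. With quantile normalization it had 0.57, at a panel median of 0.08. At 5 mg/kg the value was 0.47 ± 0.44, with overlapping groups.

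Itgb2 encodes CD18, the beta chain shared by the leukocyte integrins LFA-1 and Mac-1. Its signal was 719, 74.1 and 200.1 in G007-LK replicates 1 to 3, 28.1, 15.35 and 20.3 with STP1002 at 10 mg/kg, 53.6, 33.3 and 14.9 at 5 mg/kg, and 15.9, 21.55 and 7.83 in control mice. All 3 G007-LK libraries were above background and above the 9 others, but they differed 9.69-fold among themselves, and control replicate 1 was the only control library above background. The control signals rest on 36, 8 and 2 recovered counts. The log2 fold change with G007-LK was 3.89 ± 0.83 (SE), or 3.12 without the 2 deepest libraries and 2.42 with a common background floor. With STP1002 Itgb2 was above background in 1 library at 10 mg/kg and in 2 at 5 mg/kg. The log2 fold change was 0.53 ± 0.83 for the higher dose (-0.12 after median-ratio rescaling) and 1.05 ± 0.83 for the lower, and both groups overlapped with control mice.

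Vav1 is an exchange factor for small GTPases such as Rac that is found in blood cells and acts below antigen and adhesion receptors. A stretch of its promoter is shown for the position of the letters GAGGAA, the core bound by PU.1, an ETS factor of myeloid and B cells. The stretch lies at chr17:57279000-57279099 on the plus strand of GRCm38.p6 and ends at the base before the start of transcription given by RefSeq, with GAGGAA in capitals.
Vav1: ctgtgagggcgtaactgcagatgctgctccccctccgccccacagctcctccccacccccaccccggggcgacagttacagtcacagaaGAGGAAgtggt

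Vav1 had a signal of 481, 84.35 and 204 in G007-LK replicates 1 to 3, 61.6, 19.2 and 45.6 with STP1002 at 10 mg/kg, 102, 86.7 and 37.2 at 5 mg/kg, and 20.3, 18.9 and 11.75 in control mice. The 3 G007-LK libraries were above all control libraries, and so were the 3 libraries at 5 mg/kg, while 1 library at 10 mg/kg lay within the control range. Replicate 2 of G007-LK lay below replicates 1 and 2 at 5 mg/kg. The log2 fold change was 3.54 ± 0.75 (SE) with G007-LK, 1.15 ± 0.75 with STP1002 at 10 mg/kg and 2.00 ± 0.75 at 5 mg/kg. Without the 2 deepest libraries the G007-LK value was 3.06. With a common background floor the values were 2.30, 0.26 and 0.80; that floor, the highest background of any library, lay above all 3 control signals.

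Cybb encodes gp91phox, the catalytic subunit of the phagocyte NADPH oxidase in the membrane. Its signal was 305, 17.9 and 105 in G007-LK replicates 1 to 3, 20.1, 5.76 and 15.2 with STP1002 at 10 mg/kg, 16.6, 23.3 and 3.72 at 5 mg/kg, and 5.29, 10.8 and 3.92 in control mice. The G007-LK libraries lay above the control libraries, though replicate 2 was at 7 counts and below its own background. The log2 fold change with G007-LK was 3.57 ± 0.93 (SE), or 2.55 without the 2 deepest libraries and 1.41 with a common background floor. The values of 0.89 ± 0.93 at 10 mg/kg and 0.83 ± 0.93 at 5 mg/kg of STP1002 were within 1 SE of 0, and both became 0 with the common floor.

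Ncf1 encodes p47phox, the cytosolic organizer that carries the activating signal to the oxidase. Its signal was 62.3, 314 and 172 in G007-LK replicates 1 to 3, 331, 395.2 and 439 with STP1002 at 10 mg/kg, 558, 395.1 and 197 at 5 mg/kg, and 57.3, 164 and 137 in control mice. All 12 libraries were above background. Every STP1002 library of either dose lay above every control library, whereas G007-LK replicate 1 lay within the control range. The means were 183 ± 126 with G007-LK, 388 ± 54.1 with STP1002 at 10 mg/kg, 384 ± 181 at 5 mg/kg and 119.55 ± 55.6 in control mice (SD, n = 3 each). Against control mice the log2 fold change was 1.81 ± 0.58 (SE) for the higher dose and 1.68 ± 0.58 for the lower. These values were 1.12 and 1.55 after median-ratio rescaling, and 1.36 and 1.22 without the 2 deepest libraries. With G007-LK the log2 fold change was 0.46 ± 0.58, and it turned to -0.07 without G007-LK replicate 2. It was 1.09 without G007-LK replicate 1 and 0.001 without control replicate 1.

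Dock2 is the DOCK family exchange factor for Rac in leukocytes and is known for its role in lymphocyte migration. Ptprc encodes CD45, the receptor tyrosine phosphatase carried by leukocytes in general, which sets the activity of Src family kinases. The promoter stretches of both genes that hold GAGGAA are given here, because among the members each of these 2 genes had its closest profile in the other. On GRCm38.p6 they lie on the minus strand, at chr11:34783906-34784005 for Dock2, ending at the base before the start, and at chr1:138175386-138175485 for Ptprc, from 180 to 81 bases before a RefSeq start.
Dock2: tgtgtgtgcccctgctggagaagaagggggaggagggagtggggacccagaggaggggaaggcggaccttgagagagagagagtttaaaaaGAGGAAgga
Ptprc: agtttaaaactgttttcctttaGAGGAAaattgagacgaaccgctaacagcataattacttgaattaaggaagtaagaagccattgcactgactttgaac

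Dock2 had a signal of 23.9, 2.56 and 6.81 in G007-LK replicates 1 to 3, 95.1, 9.59 and 27.9 with STP1002 at 10 mg/kg, 189, 120.03 and 3.72 at 5 mg/kg, and 9.25, 5.39 and 3.92 in control mice. It was above background in 5 of 12 libraries. High signals were seen in replicates 1 and 2 at 5 mg/kg and in replicate 1 at 10 mg/kg, and replicate 3 at 5 mg/kg was at 1 count. The log2 fold change was 0.37 ± 1.17 (SE) with G007-LK (-0.09 without the 2 deepest libraries), 2.17 ± 1.17 at 10 mg/kg and 2.80 ± 1.17 at 5 mg/kg. Leaving out replicate 1 gave 1.35 and leaving out replicate 2 gave 2.94 at 10 mg/kg, and the value at 5 mg/kg was 1.80 without replicate 1 and 4.47 without replicate 3. With the common floor they were 0.41 and 1.25.

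Ptprc was above background in all 12 libraries. Its signal was 257, 81.8 and 127 in G007-LK replicates 1 to 3, 477, 55.6 and 231 with STP1002 at 10 mg/kg, 837, 305 and 55.8 at 5 mg/kg, and 90.7, 53.9 and 43.1 in control mice. One mouse of each treated group lay within the control range, namely replicate 2 with G007-LK, replicate 2 at 10 mg/kg and replicate 3 at 5 mg/kg. The spread within groups was 3.14-fold, 8.57-fold, 15.01-fold and 2.11-fold in that order of groups, with control mice last. The log2 fold change was 1.21 ± 0.86 (SE) with G007-LK, 1.61 ± 0.86 at 10 mg/kg and 2.01 ± 0.86 at 5 mg/kg. The G007-LK value was 0.765 without replicate 1. The value at 10 mg/kg was 0.92 without replicate 1, 2.46 without replicate 2 and 0.92 after median-ratio rescaling, and that at 5 mg/kg was 1.12 without replicate 1 and 3.07 without replicate 3.

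**Figure D2:**
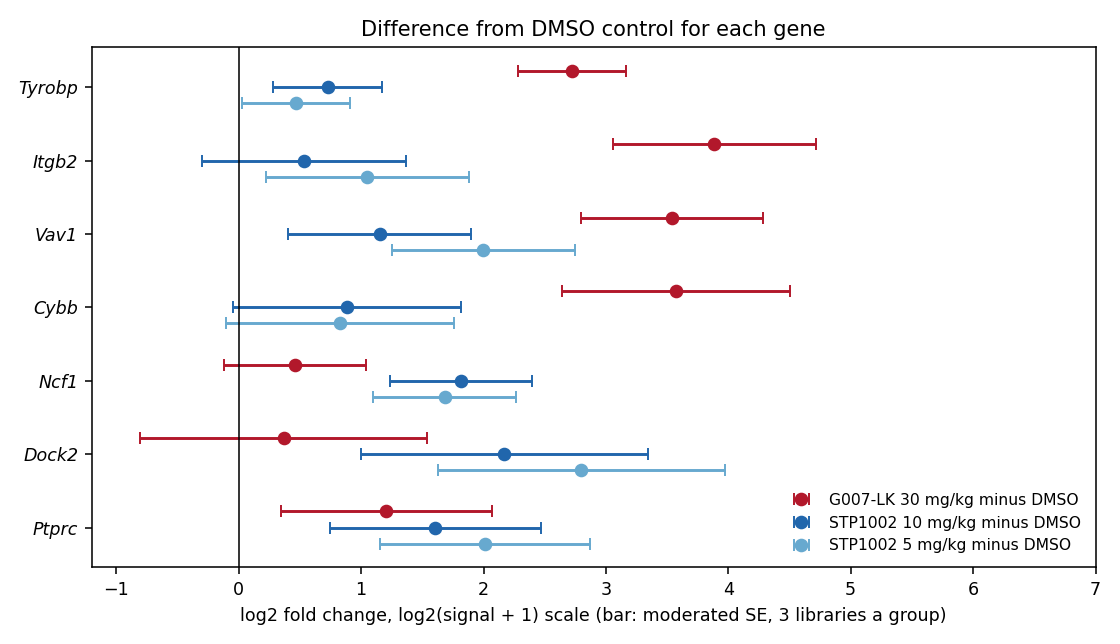
Log2 fold change of each gene against control mice, with the moderated SE as bars, for G007-LK, STP1002 at 10 mg/kg and STP1002 at 5 mg/kg. Tyrobp, Itgb2, Vav1 and Cybb have their largest values with G007-LK (2.72 to 3.89), and Ncf1, Dock2 and Ptprc theirs with STP1002 (1.81 to 2.80).

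Across the 7 genes the median log2 fold change against control mice was 2.72 with G007-LK, 1.15 with STP1002 at 10 mg/kg and 1.68 at 5 mg/kg, beside panel-wide medians of -0.09, 0.69 and 0.115. With libraries rescaled by median ratios the members' medians were 2.76, 0.49 and 1.55, with panel medians of -0.05, 0.01 and -0.01. These 3 comparisons share the control mice and are not independent. At an adjusted p under 0.05 by limma, 4 of the 7 (Tyrobp, Itgb2, Vav1 and Cybb) were among the genes called with G007-LK, where 3.46% of the panel was called. They were called with the replicate number as a block as well. Without control replicate 3, with median-ratio rescaling, with the common floor or in a fit of the 2 groups alone, Tyrobp was the 1 member called. Cybb was also not called without G007-LK replicate 1 or 3, without control replicate 1 or 2, without any 1 library at 10 mg/kg, or without replicate 1 or 2 at 5 mg/kg. None of the 7 was called at 10 or at 5 mg/kg of STP1002, where 0% of the panel was called. Without the 2 deepest libraries Ptprc was called at 10 mg/kg, and Dock2 and Ptprc at 5 mg/kg. The treated mice all lay above the control mice for 4 of the 7 with G007-LK (10.1% of the panel), for 3 at 10 mg/kg (Tyrobp, Dock2 and Ncf1; 9.36%) and for 2 at 5 mg/kg (Vav1 and Ncf1; 2.82%). As these contrasts chose the members, the counts describe them and nothing is read from the difference to the panel.

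The 2 doses of STP1002 overlapped for all 7 genes. The median log2 difference of 10 minus 5 mg/kg was -0.41 over the 7 genes, against 0.56 over the panel. After median-ratio rescaling it was -0.96, with all 7 genes lower. The unrescaled median of -0.41 turned to 0.338 without replicate 1 of 5 mg/kg and to 0.145 without replicate 2 of 10 mg/kg. The single genes ranged from -0.85 ± 0.75 (SE) for Vav1 to 0.26 ± 0.44 for Tyrobp, which turned to -0.31 after median-ratio rescaling. Groups without overlap made up 8.72% of the panel for genes higher at 10 mg/kg and 1.92% for genes lower, and 0% was called. The sign changed with single mice left out for 5 of the 7 genes. Tyrobp had -0.12 without replicate 2 of 5 mg/kg. Cybb, at 0.06 ± 0.93, had -0.65 and Ncf1, at 0.13 ± 0.58, had -0.28 without replicate 3 of 5 mg/kg, and Cybb was below 0 also without replicate 1 or replicate 3 of 10 mg/kg. Dock2 had -0.63 ± 1.17, which turned to 0.145 without replicate 2 of 10 mg/kg, 0.37 without replicate 1 of 5 mg/kg and 0.045 without replicate 2 of 5 mg/kg. Ptprc had -0.41 ± 0.86, which turned to 0.45 without replicate 2 of 10 mg/kg and 0.48 without replicate 1 of 5 mg/kg.

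The members differed from one another in which mice were high. Each gene was centred on its own mean log2(signal + 1) over the 12 libraries, and profiles were compared by their root mean square (RMS) difference over those libraries, a description in which all profiles share library depth and normalization. Itgb2, Vav1 and Cybb were close, at an RMS difference of 0.50 for Itgb2 and Cybb, 0.595 for Itgb2 and Vav1 and 0.67 for Vav1 and Cybb. These 3 were highest in G007-LK replicate 1, at 3.11 to 4.22 above their means, and within that group replicate 3 came next and replicate 2 last. Tyrobp had another order within the group and was highest in replicate 2, at 2.40. Dock2 and Ptprc were 0.83 apart and both were highest in replicate 1 at 5 mg/kg and lowest, within STP1002, in replicate 3 at 5 mg/kg and replicate 2 at 10 mg/kg. Ncf1 had an RMS difference of 2.17 from Cybb, its partner in the oxidase. Over genes above background in at least 6 libraries the median difference was 2.08 from Cybb and 0.98 from Ncf1. Ncf1 was furthest below its mean in the 2 deepest libraries, at -1.79 in G007-LK replicate 1 and -1.91 in control replicate 1.

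**Figure D3:**
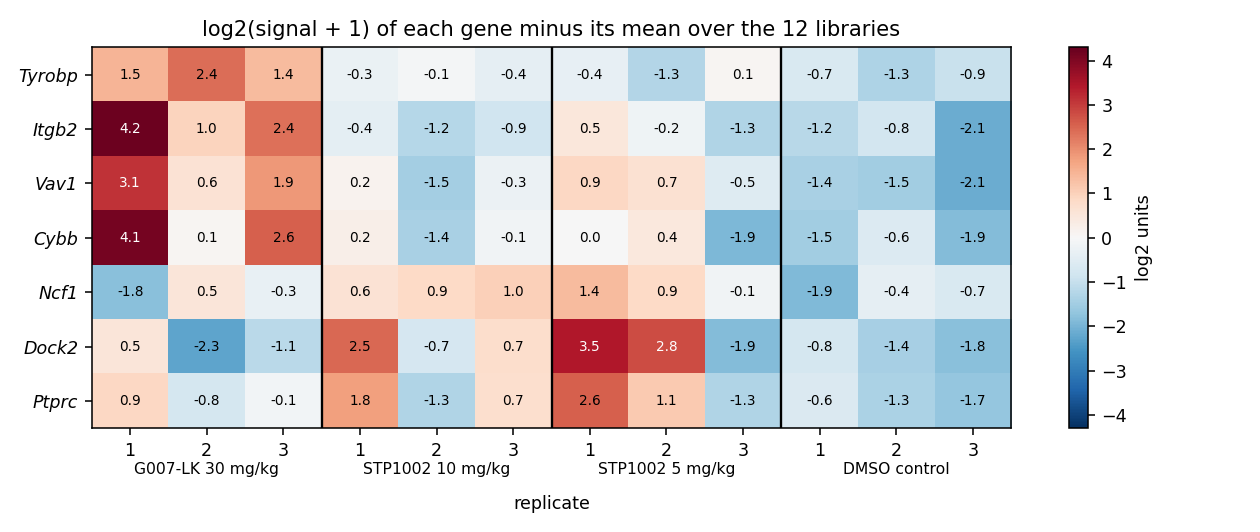
Log2(signal + 1) of each gene minus its mean over the 12 libraries, with columns for replicates 1 to 3 of G007-LK, STP1002 at 10 mg/kg, STP1002 at 5 mg/kg and DMSO control. Itgb2, Vav1 and Cybb share their highest value in G007-LK replicate 1 (3.11 to 4.22), Tyrobp peaks in replicate 2 of that group (2.40), and Dock2 and Ptprc peak in replicate 1 of STP1002 at 5 mg/kg.

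Of 677 genes above background in at least 6 libraries, the 5 closest outside the set to the mean profile of the 7 members were Tgfb1 (RMS difference 0.40), Il2rg (0.65), Tgfbr2 (0.66), Birc3 (0.67) and Lyn (0.68), where the median over the 677 genes was 1.43. The members themselves lay between 0.61 (Vav1) and 1.495 (Dock2) from this mean, all further than Tgfb1. Closeness to the mean is therefore not closeness to each member. Tgfb1 encodes the ligand TGF-beta 1, Il2rg the common gamma chain of interleukin receptors and Lyn a Src family kinase of myeloid and B cells. Taken singly, Tyrobp was closest to C3ar1, the receptor for complement C3a, at 0.40. Ncf1 was closest to Spib, an ETS factor of B cells, at 0.38, and Ptprc to Il2rg at 0.57.

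Promoter sequence from RefSeq on GRCm38.p6, 250 bases before to 50 after each start, was at hand for 5 of the 7 genes, with 2 starts for Ptprc. On either strand GAGGAA occurred in 4 of the 6 promoters, those of Vav1, Dock2, Cybb and 1 of Ptprc, against 28.3% of 32851 promoters in the table. In Vav1 it spanned bases -11 to -6 before the start and in Dock2 bases -9 to -4, a second copy on the other strand of Dock2 lay at -164 to -159, and in Cybb it lay 10 to 15 bases after the start on the other strand. The related letters GGAAGT, which overlap GAGGAA where the 8 letters run GAGGAAGT as in Vav1, were found in 4 of the 6 promoters, those of Vav1, Dock2 and both of Ptprc, and in 23.8% of all. These are matches of letters and no binding was measured.

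The other genes of these pathways were tested in the same fit. The lists (adaptors with tyrosine motifs and their kinases, leukocyte integrins and adhesion, NADPH oxidase and oxidants, and exchange factors with their GTPases) held 24 measured genes besides the members. With G007-LK 0 of the 24 were called by limma, 6 had an unadjusted p under 0.05 and 16 were higher, with a median log2 fold change of 0.54. The replicate number as a block gave 3 calls, all higher and with Icam1 and Itgam among them, edgeR gave 2 with Itgam among them, and DESeq2 gave 2 with Lyn among them. Itgam, the alpha chain that pairs with CD18 in Mac-1, had 187, 30.7 and 36.6 with G007-LK against 6.17, 18.9 and 7.83 in control mice. Its groups did not overlap, and the difference was 2.49 ± 0.79 (SE) on the log2 scale (limma adjusted p = 0.1004). Itgam was above background in 5 of 12 libraries. In G007-LK replicate 2 and control replicates 2 and 3 its signal lay below background.

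Further values with G007-LK were 2.503 ± 0.84 (SE) for the integrin ligand Icam1, 1.37 ± 0.52 for the kinase Syk and 1.49 ± 0.63 for Lyn, none of them called (limma adjusted p from 0.135 to 0.294). Icam1 was also above background in 5 of 12 libraries, and below it in the same G007-LK and control libraries as Itgam. The inducible nitric oxide synthase Nos2 had -0.48 ± 0.56, and the exchange factor Dock1 and the GTPase Rac3 had 0.46 ± 0.88 and 0.04 ± 0.79 (limma adjusted p from 0.82 to 0.99).

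With STP1002 the same lists gave no calls by limma, edgeR or DESeq2, or with the replicate block. At 10 mg/kg 7 of the 24 genes had an unadjusted p under 0.05, against 0 with median-ratio rescaling or DESeq2, 1 with edgeR and 11 with the replicate block. Of the 24 genes 20 were higher, beside 606 of the 780 panel genes, their median log2 fold change being 1.03, and 0.335 once libraries were rescaled by median ratios. Ptpn6, the phosphatase SHP-1 that counters these kinases, stood at 1.65 ± 0.53 (SE) on the log2 scale, the kinase subunit Pik3cd at 1.54 ± 0.51 and the integrin chain Itgal at 1.24 ± 0.89, each at a limma adjusted p of 0.464. Nos2, Rac3 and Dock1 had 0.21 ± 0.56, 0.74 ± 0.79 and -0.78 ± 0.88. At 5 mg/kg 2 of the 24 had an unadjusted p under 0.05 and 23 were higher, beside 496 of the 780 panel genes, with a median of 0.41. Ptpn6 had 1.89 ± 0.53, Syk 1.21 ± 0.52 and Itgam 1.04 ± 0.79, each at a limma adjusted p of 0.998. Between the doses 0 of the 24 genes were called or had an unadjusted p under 0.05, and the log2 difference of 10 minus 5 mg/kg was 1.21 ± 0.72 (SE) for the Fc receptor gene Fcgr4 and -0.67 ± 0.58 for the integrin chain Itgb1 (limma adjusted p = 0.654 each).

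**Figure D4:**
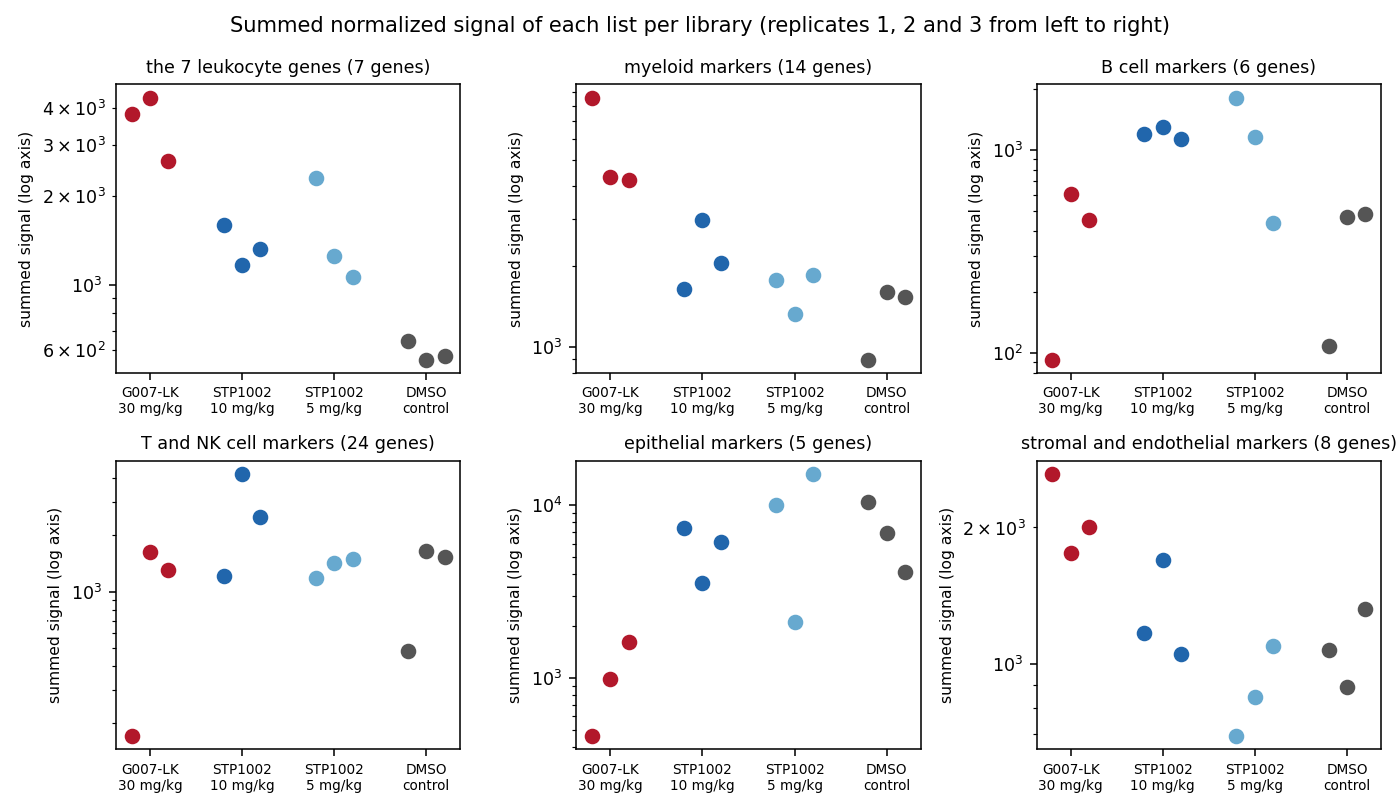
Summed normalized signal, on log axes, of the 7 genes and of 5 lists of cell type markers in each library, by treatment group. Myeloid markers sum to 4224 to 8569 with G007-LK and 895 to 1606 in control mice, and epithelial markers to 460.4 to 1620.4 with G007-LK and 4104 to 10365 in control mice. Most of each epithelial sum comes from Erbb3, Spint2 and Sfn.

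Markers of several cell types moved along with the members, and their part in the results was not tested. With G007-LK 12 of 14 myeloid markers were higher and 5 were called higher (Gpnmb, Cd68, Ms4a4a, Cd14 and Cd84). Of the 780 panel genes 352 were higher and 18 were called higher. The log2 fold changes were 3.51 ± 0.56 (SE) for Cd68, a lysosomal protein of macrophages, and 3.86 ± 0.73 for Cd14, the co-receptor for bacterial lipopolysaccharide (limma adjusted p = 0.001783 and 0.006165). Ccr2 and Flt3 were lower, at -1.69 ± 0.63 and -0.12 ± 0.88, neither of them called. Csf3r and Ly6g, counted as higher, had 0.05 ± 0.69 and 0.06 ± 0.81. The summed signal of the myeloid markers was 4224 to 8569 with G007-LK, 1651 to 2977 with STP1002 at 10 mg/kg, 1322 to 1849 at 5 mg/kg and 895 to 1606 in control mice. Of 5 epithelial markers 0 were higher and 3 (Erbb3, Spint2 and Sfn) were called lower, at log2 fold changes of -3.04, -2.94 and -3.37. Epcam and Cdh1 had -0.56 ± 0.54 (SE) and -0.86 ± 0.55, with overlapping groups, and were not called. The signal of all 5 epithelial markers summed to 460.4 to 1620.4 with G007-LK, 3545 to 7376 at 10 mg/kg, 2110.5 to 15119 at 5 mg/kg and 4104 to 10365 in control mice. Most of each sum came from Erbb3, Spint2 and Sfn. Stromal and endothelial markers, with 3 of 8 higher and 0 called, among them Fbn1 at 1.42 ± 0.44 (SE) and Dcn at 1.45 ± 0.55 on the log2 scale, summed to 1756 to 2622 with G007-LK, 1054.5 to 1700 at 10 mg/kg, 693 to 1097.5 at 5 mg/kg and 892 to 1319.6 in control mice.

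For lymphocytes, all 6 B cell markers were higher at both doses of STP1002, none of them called, where 606 of 780 panel genes were higher at 10 mg/kg and 496 at 5 mg/kg. After median-ratio rescaling the median log2 fold change at 10 mg/kg was 1.30 for B cell markers and 0.61 for T and NK cell markers, and 1.62 and 0.27 at 5 mg/kg. The summed signal of the B cell markers was 92.8 to 603 with G007-LK, 1131 to 1289 at 10 mg/kg, 435 to 1808 at 5 mg/kg and 108 to 482 in control mice. Among STP1002 mice this sum was lowest in replicate 3 at 5 mg/kg, at 435, where Dock2 and Ptprc were low too, but unlike them it was not low in replicate 2 at 10 mg/kg, at 1289. T and NK cell markers summed to 170.0 to 1631 with G007-LK, 1214 to 4215 at 10 mg/kg, 1183 to 1495.5 at 5 mg/kg and 481 to 1651 in control mice, with 3, 22 and 21 of 24 higher than in control mice in the 3 treated groups, none called, beside 352, 606 and 496 of the 780 panel genes. The low ends of the B cell and of the T and NK cell sums were those of G007-LK replicate 1 and control replicate 1. Deposited values had a floor of 1, and Cd8a in G007-LK replicate 1 and Blk in control replicate 1 stood at it. Markers that no library of a group had above background were Cd27 and Klrk1 in all 4 groups, Lck in the G007-LK and 10 mg/kg groups, Cd6 in the G007-LK and 5 mg/kg groups, Blk with G007-LK and in control mice, Gpnmb and Itgam at 10 mg/kg, and Tek at 5 mg/kg.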

How the data were processed

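Ileum RNA (integrity number above 7.0) was measured with NanoString's nCounter tumour signalling panel for mouse, which by the labels' protocols holds 760 genes related to tumours besides 20 housekeeping genes. The deposited table holds normalized signal per gene and library; the software, the background step and the normalization genes are not given in the sources used here. Values were whole multiples of 1 factor per library (100% of values in 9 libraries, 98.7% or more in the others, tolerance 0.0051 in units of signal), and counts recovered from these factors served alternatives only.

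The fit used limma 3.58.1 in R 4.3.3 (lmFit, eBayes with trend) on log2(signal + 1) of 780 genes, all 12 libraries and 4 group means, two-sided, with Benjamini-Hochberg adjustment and calls at an adjusted p under 0.05. A log2 fold change on this scale understates the change of low genes. edgeR 4.0.16 and DESeq2 1.42.0 on recovered counts, other scalings, pseudocounts, filters, a replicate block and libraries left out were alternatives. The common floor raised each signal below the highest background of any library to that background.

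The members and lists were chosen with earlier results of these data known. All members are named, and of each other list the called genes, or otherwise genes with the smallest p; not every such gene is given, and some listed genes are not reported here. Replicate numbers come from the sample titles. Deviations of same-numbered libraries correlated at 0.60, 0.48 and 0.31 for G007-LK and control and at 0.78, 0.57 and 0.16 for STP1002 at 10 mg/kg and control, so the numbers pair these libraries by the rule used (every correlation over 0.1). The fold changes, SEs and adjusted p-values given are from the fit without the replicate block, and blocked counts stand beside them where they differ. For STP1002 at 5 mg/kg and control the correlations were 0.36, 0.24 and 0.03, and between the doses 0.46, 0.25 and 0.02. These comparisons did not meet the rule. The variance between replicates of a group was 3.41 to 133.8 times that of counting error (chi-square per degree of freedom).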

Additional observations from a re-analysis of the deposited data

How the results depend on the processing

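With G007-LK against control 27 panel genes were called (18 higher, 9 lower). The count was 7 with a common background floor, 14 with median-ratio rescaling, 47 with DESeq2, 63 with the replicate block, 160 with array weights and 15 in a fit of the 2 groups alone, and 16 to 47 with 1 library left out. Quantile normalization gave 29, split as 15 higher and 14 lower. Of the 24 pathway genes 0 were called, against 2 with edgeR, 2 with DESeq2, 3 with the replicate block, 10 with array weights and 0 to 1 with 1 library left out. Of the members 4 were called, against 1 with the common floor, with rescaling or in the 2 groups alone, and 1 to 4 with 1 library left out. Tyrobp was called under all 24 alternatives. As these contrasts chose the members, all counts of called members given here describe them and are no test of them. The members' median log2 fold change of 2.72 became 1.82 with a pseudocount of 30 and 1.41 with the common floor. For STP1002 at 10 mg/kg, with 0 calls, array weights gave 283 panel genes, 14 pathway genes and 6 members, the 2 groups alone gave 2 panel genes, and leaving out the 2 deepest libraries gave 5 panel genes and 1 member. At 5 mg/kg, with 0 calls, array weights gave 17, 1 and 4, and leaving out the 2 deepest libraries gave 3 panel genes and 2 members. Between the doses array weights gave 388 panel genes and 9 pathway genes. The array weight estimation stopped before convergence and gave 1 library (STP1002 at 10 mg/kg, replicate 3) a weight of 47.6, so these counts carry that limit. The causes of the other shifts were not tested. With the replicate block no call was made for STP1002, while panel genes with an unadjusted p under 0.05 numbered 243 at 10 mg/kg, against 36 without it. Itgb2, Vav1, Cybb and Dock2 lay at or below background in 2 of 3 control libraries, which limits the precision of their fold changes.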
